A study of Mus musculus with 11 samples.

Results

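The aortas of apoE-/- mice after 10 months of high fat diet (3 mice) were compared with those after 3 months (4 mice), across 517 assays for mature microRNAs (miRs). These 7 samples, chosen by their titles, belong to a series of 11, and the other 4 are mice on a normal diet (control). All mice were female and lacked apolipoprotein E, a deletion that raises plasma cholesterol and that the controls carried too. The high fat diet held 21% crude fat, 19.5% casein and 0.15% cholesterol. The labels call the aortas of both diet groups atherosclerotic and those of the controls not. Total RNA came from whole aorta, 1 mouse per array. For the 10-month mice the titles, descriptions and design text give 10 months but the treatment field gives 3 months; the titles were used. The design text also states 4 replicates per group, and 3 are given for 10 months. An age of 6 to 8 weeks is stated for all groups without saying at which point it was taken. Age and months of feeding thus cannot be told apart.

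No miR differed between 10 and 3 months past an adjusted p of 0.05 (limma, 0 of 353 tested, a share of 0.00%). Among miRs lower at 10 months, the smallest p values nevertheless came mostly from the same chromosomal region. Of the 12 lower miRs of smallest p among those detected in all mice of a diet group, 10 belong to the Dlk1-Dio3 imprinted region. Among them, miR-376c, miR-485*, miR-494, miR-337-5p and miR-434-3p were each 2.49 to 2.82 times lower relative to the array mean. Among the higher miRs the smallest p was that of miR-21*, the passenger strand of the miR-21 hairpin, 3.40 times higher on that reference. These sizes depended on the processing. Over all settings tried, the log2 difference ran from -1.70 to -0.57 for miR-376c and from 1.47 to 2.60 for miR-21*. The 8 tested let-7 guide strands all had differences below 0 relative to the array mean, and 3 of 8 did with 4 control RNAs as reference. Relative to the array mean, 8 of 10 miRs known from activated macrophages had differences above 0.

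A miR is cut from a hairpin precursor, and either arm can be loaded into an Argonaute protein; the less abundant arm was marked with an asterisk in the older names used by these assays. The loaded strand pairs with messenger RNAs mainly through its seed, bases 2 to 8, and lowers their translation or stability. The Dlk1-Dio3 region on mouse chromosome 12 is imprinted: its miRs are made from the maternal copy, along long noncoding transcripts that include Meg3, the antisense strand of Rtl1, and Mirg. In the artery wall, miR-143 and miR-145 are known for the contractile state of smooth muscle, miR-126 for endothelium, and miR-142, miR-223 and miR-150 for blood-lineage cells.

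The mature sequences of the miRs on which the results turn are given from RefSeq (GRCm38.p6), 5′ to 3′, with the seed in capitals. The first set holds miRs of the Dlk1-Dio3 region for which every 10-month mouse lay below every 3-month mouse, and no 2 of those shown share a seed. The seed of miR-376b* is also that of miR-376c*, which was not tested.
miR-485*: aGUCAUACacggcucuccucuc
miR-494: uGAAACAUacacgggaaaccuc
miR-337-5p: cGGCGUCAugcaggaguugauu
miR-434-3p: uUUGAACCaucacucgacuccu
miR-379: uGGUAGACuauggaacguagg
miR-495: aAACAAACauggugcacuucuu
miR-376b*: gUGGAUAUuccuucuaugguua

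The second set shows the let-7 guide strands, which share the seed GAGGUAG, beside the passenger strands of let-7d and let-7i, whose seeds differ.
let-7e: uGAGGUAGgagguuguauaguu
let-7a: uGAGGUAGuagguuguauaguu
let-7g: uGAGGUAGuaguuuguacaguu
let-7d*: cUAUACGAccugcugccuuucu
let-7i*: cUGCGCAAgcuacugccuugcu

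The third set holds miRs with differences above 0, most of them with overlapping groups: both strands of miR-21, and the pairs that share a seed, miR-146a with miR-146b, miR-34b-3p with miR-34c*, and miR-200a* with miR-200b*.
miR-21: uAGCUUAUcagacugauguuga
miR-21*: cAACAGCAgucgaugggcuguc
miR-146a: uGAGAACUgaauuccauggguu
miR-146b: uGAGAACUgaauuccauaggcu
miR-34b-3p: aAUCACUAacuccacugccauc
miR-34c*: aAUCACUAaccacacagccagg
miR-200a*: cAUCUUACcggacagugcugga
miR-200b*: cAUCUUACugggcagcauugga

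A level is given here as minus the threshold cycle relative to the array mean, taken over 285 miRs present in each of the 11 samples, on a log2 scale, so that 1 unit stands for 2 times more template if each cycle doubles it. An assay at 35 cycles or later counted as not detected and was set to 35. Replicate 2 of the 10-month group stood apart: its miRs appeared at a mean of 26.92 cycles, against 23.49 and 23.17 in the other 10-month mice and 23.76 to 24.94 at 3 months. Its U6 control RNA came at 17.65 cycles, against 11.05 and 11.93 in the same group. Of the 517 assays, 355, 322 and 369 were detected in the 10-month mice and 337, 352, 342 and 338 in the 3-month mice. These numbers gave p = 0.629 (exact permutation test, two-sided), and the smallest p this test can give is 0.0571. The median absolute log2 difference between mice was 0.49 to 0.79 within the 10-month group, 0.31 to 0.73 within the 3-month group and 0.48 to 0.92 between the groups.

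Before adjustment, 22 miRs were higher (6.23% of those tested) and 24 lower (6.80%) at p under 0.05. The unmoderated form of the test, without limma's shared variance, called 1 miR after adjustment (miR-376c). The 7 mice did not overlap between the groups for 43 miRs (12.2%), 19 higher (5.38%) and 24 lower (6.80%). Of these, 36 were detected in all 7 mice (10.2%), 13 higher (3.68%) and 23 lower (6.52%). The log2 difference was above 0 for 194 miRs (55.0%) and below 0 for 159 (45.0%), and its median over all tested miRs was 0.06.

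**Figure D1:**
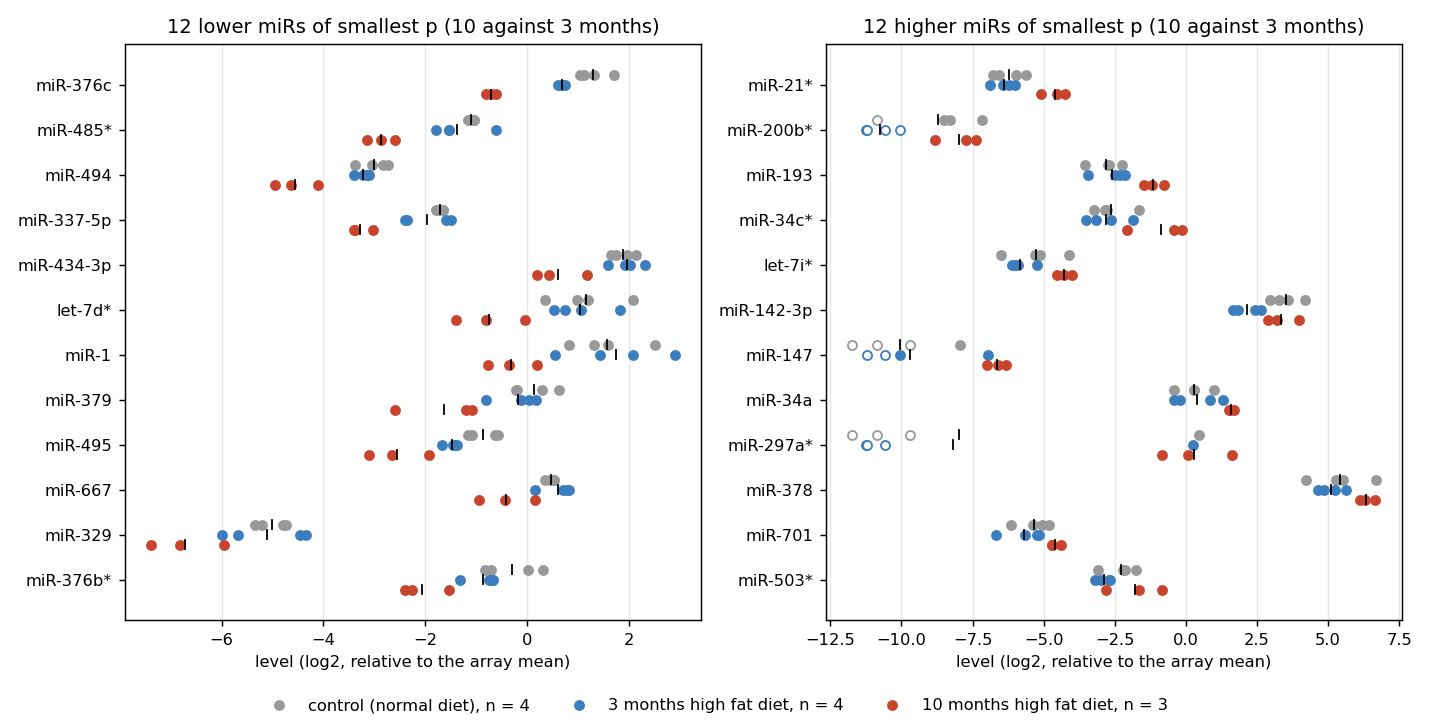
Level of the 12 lower (left) and 12 higher (right) miRs of smallest p in each mouse, on a log2 scale relative to the array mean. Both sets were taken only from miRs detected in all mice of a diet group. Points are mice, short bars are group means, and open points were not detected and lie at the 35-cycle limit of their array. In miR-376c the 3 mice at 10 months sit between -0.80 and -0.61, and the 4 at 3 months between 0.61 and 0.75.

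miR-376c, a miR of the middle of the Dlk1-Dio3 region, had the smallest p. Its level was 0.69, 0.69, 0.61 and 0.75 in the 3-month mice and -0.61, -0.72 and -0.80 in the 10-month mice. The groups lay apart by more than the spread within either, and the control mean was higher still, at 1.30 ± 0.29 (SD, n = 4). The log2 difference was -1.40 ± 0.25 (SE; limma adjusted p = 0.0711), and -1.41 without 10-month replicate 2.

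miR-485*, from the far part of the same miR cluster, was at -1.54, -1.80, -0.61 and -1.54 at 3 months and at -2.86, -3.14 and -2.60 at 10 months. Every 10-month mouse lay below every 3-month mouse. The difference was -1.50 ± 0.32 (SE; limma adjusted p = 0.0740). miR-494 was at -3.22, -3.40, -3.14 and -3.11 at 3 months against -4.10, -4.95 and -4.64 at 10 months. Again the groups did not overlap, and the difference was -1.35 ± 0.29 (SE; limma adjusted p = 0.0740).

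miR-337-5p, encoded near Meg3, was at -1.59, -1.50, -2.35 and -2.39 at 3 months and at -3.39, -3.41 and -3.03 at 10 months, a difference of -1.31 ± 0.30 (SE; limma adjusted p = 0.0838). miR-434-3p, which lies antisense to Rtl1, a gene for a retrotransposon-derived protein of placenta and muscle, was at 2.03, 2.32, 1.59 and 1.92 at 3 months. At 10 months it was at 0.44, 1.17 and 0.19. Neither miR overlapped between the groups, and the difference of miR-434-3p was -1.36 ± 0.31 (SE; limma adjusted p = 0.0838). The opposite arms of both hairpins had differences below 0 with overlapping groups, -0.96 for miR-337-3p and -0.79 for miR-434-5p.

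Of the 65 assays for the Dlk1-Dio3 region 41 were tested; the others did not reach detection in 3 samples of any group. Relative to the array mean, 33 of those tested had a difference below 0 and 8 above (23 below with the control RNAs), with a median of -0.97 beside 0.06 for all miRs. At unadjusted p under 0.05, 18 were lower and 0 higher (6.80% and 6.23% of all tested miRs). In 14, every 10-month mouse lay below all 3-month mice (6.80% of all tested miRs). Outside the region 126 of 312 tested miRs had a difference below 0 and the median was 0.14. There 6 were lower and 22 higher at unadjusted p under 0.05, and 10 lay lower and 19 higher without overlap. The mean level of the 41 miRs was -3.21, -3.28, -3.71 and -3.71 in the 3-month mice and -4.39, -4.30 and -4.21 in the 10-month mice. The controls stood at -2.93 ± 0.17 (SD, n = 4). Because the tissue is bulk, fewer cells that make these miRs and less of them per cell cannot be told apart.

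The median difference was below 0 in each part of the region. Near Meg3 the 4 tested miRs had a median difference of -1.14, the 7 antisense to Rtl1 of -0.79, and the 29 from miR-379 to miR-410 of -0.99. Of those 29, 24 had a difference below 0 (45.0% of all tested miRs) and 12 lay lower without overlap (6.80% of all). Near Meg3, 3 of 4 were below 0 and 1 of 4 lay lower without overlap. Antisense to Rtl1 the counts were 5 of 7 and 1 of 7.

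**Figure D2:**
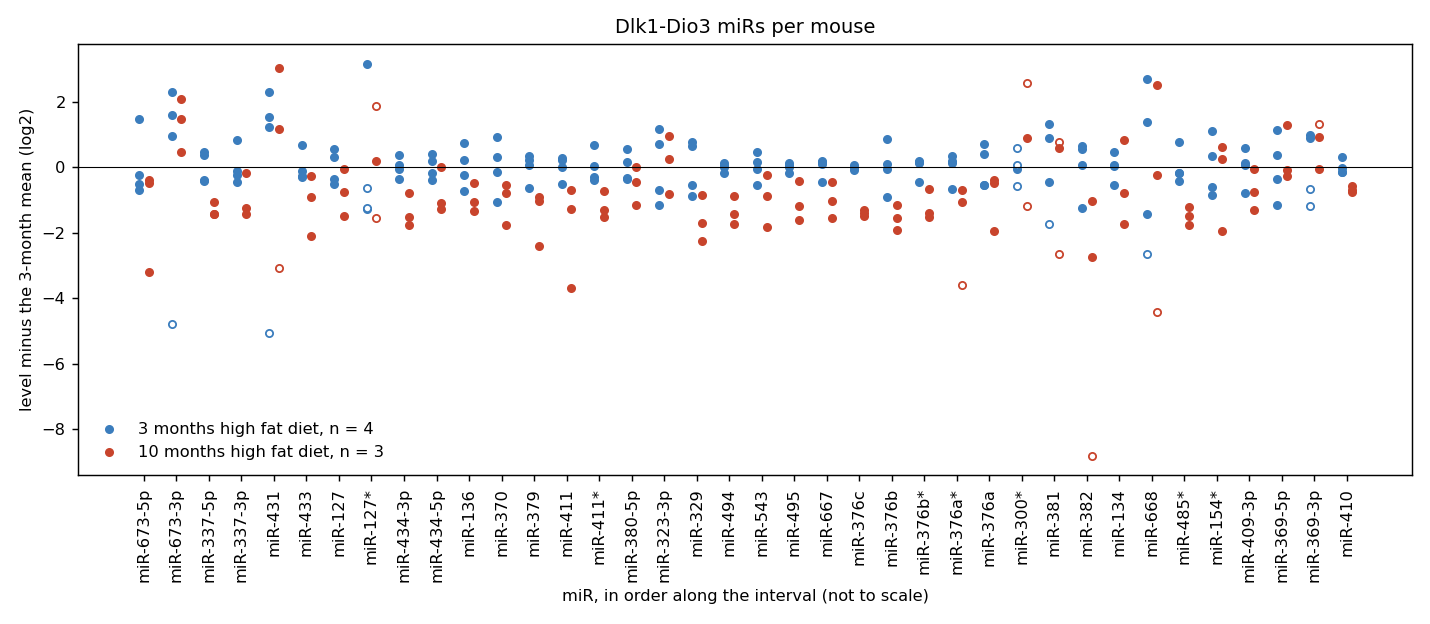
Level of 38 Dlk1-Dio3 miRs in each mouse of the diet groups minus the 3-month mean of that miR (log2), in order along the region by the gene table; open points were not detected. For miR-376c, miR-494 and miR-337-5p all 10-month points lie below all 3-month points, whereas for miR-668 and miR-381 the groups mix.

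Within the miR-376 group, miR-376b was at -2.25, -3.02, -3.17 and -4.02 at 3 months and at -4.27, -5.03 and -4.67 at 10 months. Its passenger strand miR-376b* was at -0.69, -1.32, -0.75 and -0.67 against -2.26, -2.39 and -1.54. Neither overlapped, with differences of -1.54 and -1.20. miR-376a overlapped (difference -0.95, -0.46 without 10-month replicate 2). The sequences of this group are close to each other, so its assays may cross-react and their values are uncertain.

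miR-379, the first miR of the large cluster, was at 0.05, -0.12, -0.81 and 0.17 at 3 months and at -1.09, -2.59 and -1.20 at 10 months. The lowest value was that of 10-month replicate 2, without which the difference of -1.45 was -0.98. miR-411, which follows it, was at 2.42, 2.20, 1.67 and 2.48 against 1.50, -1.50 and 0.92, and its difference of -1.88 was -0.99 without that mouse. miR-495 went the other way: its difference of -1.08 was -1.41 without it, from levels of -1.47, -1.43, -1.66 and -1.37 against -3.11, -1.92 and -2.66. miR-410, at the far end, was at -1.46, -1.79, -1.92 and -1.94 against -2.54, -2.46 and -2.34, a smaller difference of -0.67 ± 0.28 (SE) without overlap. miR-667 differed by -1.02 and miR-411* by -1.20 without overlap, and miR-329 by -1.60 and miR-543 by -0.99 with it.

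Some members had wider spreads. miR-382 was at 1.37, 1.29, -0.50 and 0.78 at 3 months and at -2.02 and -0.31 in 10-month replicates 1 and 3, and was not detected in replicate 2. Its difference of -4.20 was -1.91 without that mouse. miR-376a*, also undetected in that mouse, differed by -1.79 and by -0.90 without it. miR-127, antisense to Rtl1, was at 2.35, 2.59, 1.69 and 1.53 against 0.54, 1.97 and 1.28, so the groups overlapped (difference -0.77 ± 0.40, SE; limma adjusted p = 0.454). Both strands of a hairpin could be set side by side in 4 hairpins of the region detected in all 7 mice, and both strands were lower in 4 of 4. In the other 62 hairpins both strands had the same sign in 42, 16 lower and 26 higher.

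The size of these values depended on the reference. The control RNAs snoRNA135, snoRNA202, snoRNA429 and U6 had mean differences below 0 relative to the array mean, and none passed its test. snoRNA202 was at 8.09, 7.97, 9.14 and 8.49 in the 3-month mice and at 7.92, 7.17 and 7.61 in the 10-month mice, without overlap. Its difference was -0.86 (exact permutation test, two-sided, p = 0.0571, the smallest this test can give, and 0.343 adjusted over 6 assays). U6 differed by -0.88 and by -0.02 without 10-month replicate 2. Without that mouse snoRNA135 differed by -0.46 instead of -1.29, snoRNA202 by -0.66 and snoRNA429 by -0.12 instead of -0.30. All 4 differences were smaller without it, so values with these control RNAs as reference depend on that mouse. With the mean of the 4 control RNAs as reference, the median difference of all miRs was 0.89, that of the Dlk1-Dio3 miRs -0.14 and that of the let-7 guide strands 0.08. Of the 41 Dlk1-Dio3 miRs, 23 were then below 0. The distance of the Dlk1-Dio3 median from that of all miRs was -1.03 with either reference. It cannot differ between them, since each shifts all miRs of an array by 1 amount, so these are differences relative to the other miRs.

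**Figure D3:**
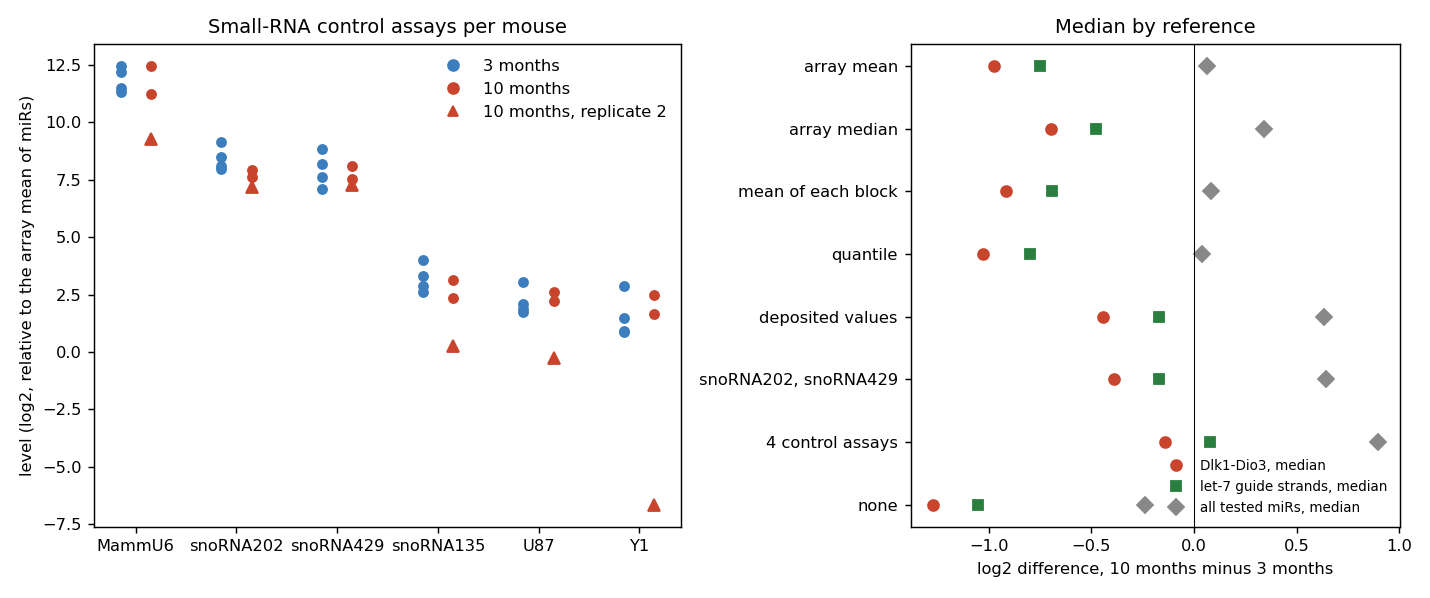
Left, level of 6 small control RNAs in each diet-group mouse relative to the array mean of miRs (log2), with 10-month replicate 2 as a triangle. The Y1 triangle averages wells at 27.16 and 40 cycles, the latter marking no amplification. Right, median log2 difference (10 minus 3 months) of the Dlk1-Dio3 miRs, the let-7 guide strands and all tested miRs under 8 references; the median of all miRs runs from -0.24 with no normalization to 0.89 with 4 control assays, and most references shift all miRs of an array alike, so they move the medians together.

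let-7 miRs are known for holding back growth genes in differentiated cells. let-7e was at 5.14, 5.02, 6.63 and 5.30 at 3 months and at 3.89, 4.03 and 4.28 at 10 months. It was the only one of the 8 guide strands whose groups did not overlap (difference -1.46 ± 0.54, SE; limma adjusted p = 0.294). let-7a was at 3.89, 4.05, 5.30 and 2.93 against 2.55, 2.45 and 3.54, a difference of -1.20, and let-7f differed by -1.24, let-7c by -0.78 and let-7d by -0.72. The other three lay closer to 0, at -0.24 for let-7b, -0.23 for let-7i and -0.10 for let-7g. The mean level of the 8 strands was 3.85, 3.81, 4.66 and 3.52 in the 3-month mice and 2.91, 3.12 and 3.61 in the 10-month mice, and the controls spanned 1.74 to 4.49, wider than either diet group. Members differ by few bases, as the sequences above show, so the assays may read each other's target.

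The passenger strands of let-7 did not share one direction. let-7d* was at 1.06, 0.75, 1.83 and 0.53 at 3 months against -1.40, -0.04 and -0.80, a difference of -1.79 ± 0.49 (SE; limma adjusted p = 0.161). let-7i* was at -6.13, -6.02, -5.25 and -5.91 against -4.54, -4.00 and -4.30, a difference of 1.55 ± 0.50 (SE; limma adjusted p = 0.216). Neither overlapped between the groups. let-7b* was not detected in any 3-month mouse and was at -1.28 and 0.23 in 10-month replicates 1 and 3, and not detected in replicate 2. Over the whole let-7 list 12 of 15 tested strands had a difference below 0, with a median of -0.72.

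miR-26a and miR-26b, which share the seed UCAAGUA, also lay lower without overlap relative to the array mean; with the control RNAs miR-26a differed by 0.16. miR-26a was at 7.26, 6.85, 7.01 and 7.0 at 3 months and at 6.57, 5.94 and 6.57 at 10 months, a difference of -0.67 ± 0.31 (SE). miR-26b differed by -0.91 ± 0.43 (SE). The limma adjusted p of both was 0.393.

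**Figure D4:**
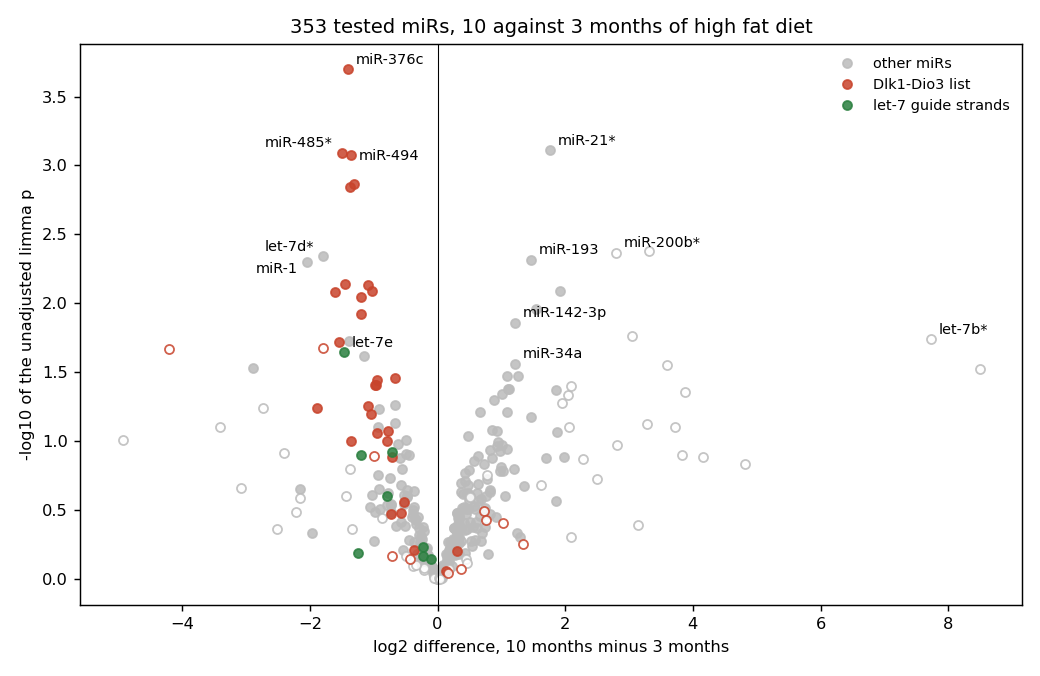
Log2 difference between 10 and 3 months (x axis) against -log10 of the unadjusted limma p (y axis) for 353 miRs; open points were not detected in all 7 mice. The Dlk1-Dio3 miRs (red) lie mostly at the left, the 8 let-7 guide strands (green) all left of 0 relative to the array mean, and miR-21* is the highest point at the right.

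Among miRs higher at 10 months, miR-21* was at -6.43, -6.87, -6.20 and -6.02 at 3 months and at -4.24, -5.08 and -4.53 at 10 months. The groups did not overlap, and the control mean of -6.23 ± 0.54 (SD, n = 4) was close to that of 3 months. The difference was 1.77 ± 0.37 (SE; limma adjusted p = 0.0740). Its guide strand miR-21, known from inflamed and injured vessels, was far more abundant and overlapped: 4.46, 5.0, 3.51 and 3.82 against 5.23, 4.73 and 4.51 (difference 0.63 ± 0.38, SE).

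The macrophage activation list, miRs induced by inflammatory ligands, had 8 of 10 tested members above 0 and a median of 0.89. At unadjusted p under 0.05, 2 of the 10 were higher and 0 lower, beside 6.23% and 6.80% of all tested miRs. miR-155, which promotes inflammatory cytokine output, was at 0.03, 0.26, 0.12 and 0.94 at 3 months and at 2.55, 1.49 and 0.26 at 10 months, and 10-month replicate 3 lay within the 3-month range. miR-146a, a brake on signalling from Toll-like receptors, showed the same mouse low, with 5.16, 5.52, 4.94 and 6.15 against 6.53, 7.47 and 5.10, and its difference of 0.93 was 0.37 without 10-month replicate 2. miR-146b, with the same seed, differed by 0.85, and its passenger strand miR-146b*, undetected in 3-month replicate 4, by 3.28 without overlap. miR-147 was at -6.31, -6.99 and -6.62 at 10 months and was detected in 2 of 4 mice at 3 months, at -6.94 and -10.04. The median of this list minus that of all miRs was 0.82, and ran from 0.36 without 10-month replicate 1 to 1.40 without 10-month replicate 3.

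Of the leukocyte list 7 of 10 tested members were above 0, with a median of 0.72 and 0.37 without 10-month replicate 2. miR-142-3p was at 2.45, 2.66, 1.82 and 1.65 at 3 months and at 2.90, 3.99 and 3.21 at 10 months, without overlap (difference 1.22 ± 0.41, SE; limma adjusted p = 0.243). The control mean was 3.51 ± 0.52 (SD, n = 4), nearer to that of 10 months. miR-150 of mature lymphocytes was at 7.68, 7.37 and 5.34 at 10 months against 5.43, 5.99, 5.27 and 6.37, and miR-223 of granulocytes and macrophages at 5.79, 6.50 and 4.34 against 4.84, 4.70, 4.85 and 5.47. In both, 10-month replicates 1 and 2 lay above every 3-month mouse and replicate 3 did not. The mean level of the list was 2.11, 1.99 and 0.62 in the 10-month mice against 0.64 to 1.35 at 3 months. Its part in the other differences was not tested. miR-142-5p differed by 0.85 without overlap, and miR-342-3p by 0.28 with overlap (-0.30 without 10-month replicate 2). Of the 10 tested members, 3 differed below 0. Without overlap 2 lay higher and 1 lower (5.38% and 6.80% of all tested miRs).

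The list for ageing and senescence had 10 of 11 tested members above 0 and a median of 0.68. miR-34a, a target of p53 that slows the cell cycle, was at 0.85, 1.29, -0.42 and -0.21 at 3 months and at 1.53, 1.69 and 1.56 at 10 months. The 10-month mice were close together and above all 3-month mice (difference 1.22 ± 0.47, SE; limma adjusted p = 0.328). miR-34c* was at -2.65, -3.17, -3.50 and -1.85 against -0.13, -0.41 and -2.07, with 1 overlapping mouse (difference 1.92 ± 0.58, SE). miR-34b-3p, with the same seed, differed by 0.82 and miR-34c by 1.70, both with overlap.

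Other miRs among the 12 shown on the higher side included miR-193, which was at -2.49, -2.15, -2.33 and -3.45 against -1.45, -0.77 and -1.19. miR-378, encoded in the gene of the metabolic coactivator PGC-1β, was at 4.84, 4.64, 5.63 and 5.26 against 6.12, 6.65 and 6.29. Neither overlapped, with differences of 1.47 ± 0.41 and 1.26 ± 0.51 (SE), at limma adjusted p values of 0.161 and 0.350. The adipose and liver list to which they belong had 7 of 10 above 0 and a median of 0.28, and without 10-month replicate 2 it had 5 of 10 above 0 and a median of 0.04. miR-701 was higher by 1.08 without overlap, and miR-503* by 1.10 with overlap.

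Only miR-200b* was detected in all mice of one diet group and in none of the other: it was at -8.81, -7.73 and -7.39 at 10 months, and was detected in 3 of 4 controls. Its seed partner miR-200a* was at -9.15, -9.28, -6.49 and -5.96 against -5.41, -5.59 and -6.57. The epithelial list that holds both had 9 of 14 above 0 and a median of 0.38, which was 0.12 without 10-month replicate 2. miR-684 was detected in 2 of 3 mice at 10 months and 0 of 4 at 3 months. It was therefore not eligible for the figure of miRs of smallest p, although its unadjusted p (limma) was 0.00416. miR-297a* was at 0.24 in 3-month replicate 3 and undetected in the other three, against 1.64, -0.82 and 0.07 at 10 months; such an assay, abundant or undetected within a group, gives a fold of little use. The 35-cycle limit fell at -8.08 in 10-month replicate 2 and at -11.24 to -10.06 in the 3-month mice, so an undetected value there is placed higher.

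Markers of the artery wall were abundant in all 7 mice. miR-145 was at 12.28, 12.82, 12.66 and 11.97 at 3 months and at 11.68, 12.83 and 11.24 at 10 months. miR-143, from the same transcript, was at 8.32, 8.34, 7.89 and 7.99 against 7.75, 7.31 and 7.87, narrowly lower without overlap but higher by 0.34 with the control RNAs as reference (difference -0.49 ± 0.29, SE; limma adjusted p = 0.497). The third tested assay of this list, miR-145*, differed by 0.36. The endothelial miR-126-3p was at 8.89, 9.02, 8.43 and 9.45 against 9.54, 9.98 and 8.76, and its other arm miR-126-5p at 5.37, 4.77, 4.76 and 4.95 against 5.44, 5.45 and 5.43.

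Striated muscle miRs did not share a direction. miR-1, of heart and skeletal muscle, was at 1.43, 0.55, 2.90 and 2.07 at 3 months and at -0.35, -0.77 and 0.19 at 10 months, a difference of -2.05 ± 0.57 (SE; limma adjusted p = 0.161) without overlap. The other three tested members overlapped, with differences of -0.29 for miR-133a, 0.06 for miR-133b and 0.14 for miR-206. miR-133a, which shares a precursor transcript with miR-1, was at 7.0, 7.02, 7.76 and 8.20 against 7.88, 7.14 and 6.58.

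**Figure D5:**
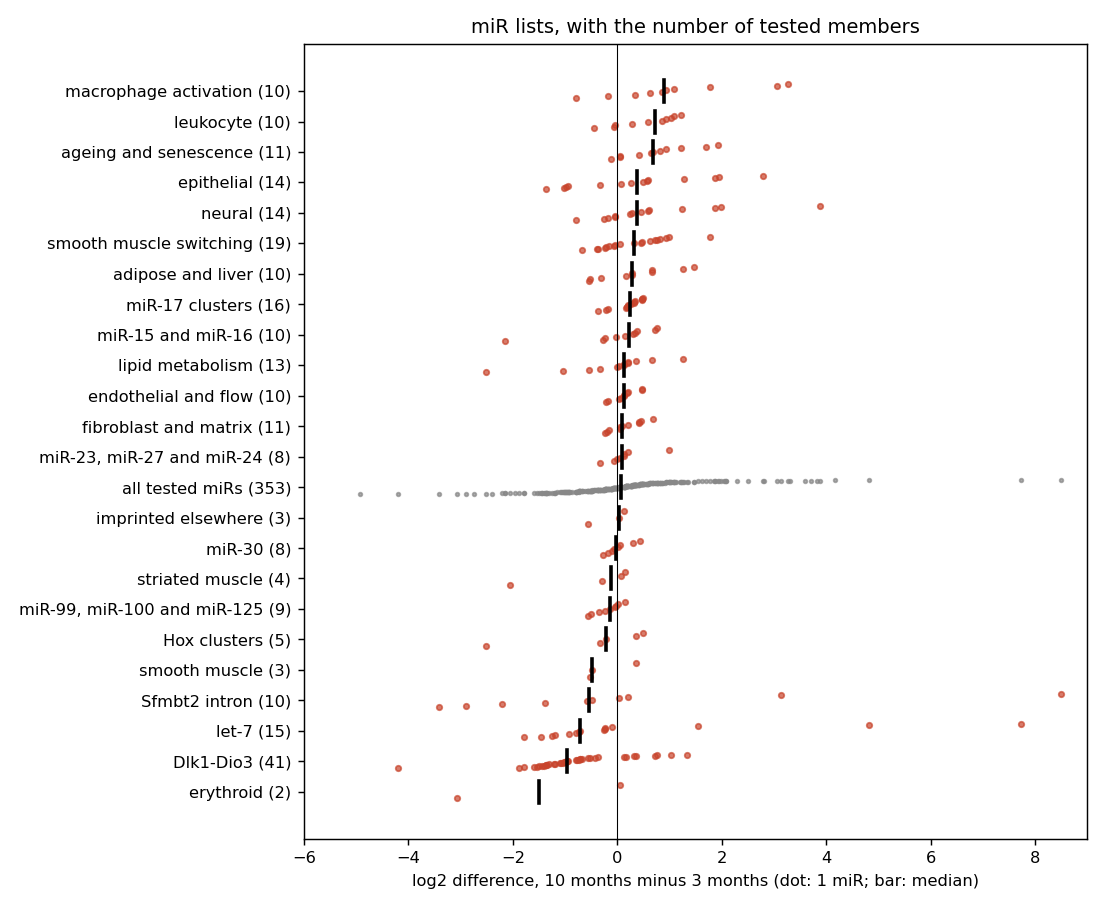
Log2 difference between 10 and 3 months of each tested miR (dots) in 23 lists and in all 353 tested miRs (grey), with medians as bars and the number of tested members in brackets. The Dlk1-Dio3 median lies at -0.97 and that of the macrophage activation list at 0.89, beside 0.06 for all miRs; lists share members.

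The medians of the remaining lists lay on both sides of that of all miRs. The median over the 19 miRs of smooth muscle switching was 0.31; miR-221 stood at 0.48 and miR-222 at 0.81, both overlapping between the groups. The 16 miRs of the miR-17 clusters had a median of 0.24, with 13 above 0, and differences between -0.37 and 0.50. Without 10-month replicate 2 it was 0.04, with 10 of 17 tested above 0, equal to the median of all miRs. The fibroblast and matrix list had a median of 0.09, and its miR-29b, which targets collagens, differed by 0.05. Medians were 0.12 for the endothelial and flow list (miR-92a differed by 0.18, and by -0.08 without 10-month replicate 2) and for the lipid metabolism list, 0.37 for the neural list, 0.23 for miR-15 and miR-16 and 0.08 for miR-23, miR-27 and miR-24. Below 0 lay miR-30 (-0.03), the miR-99, miR-100 and miR-125 list (-0.14), the Hox clusters (-0.22), smooth muscle (-0.49) and the Sfmbt2 intron (-0.53), whose near-identical members may cross-react. miR-129-5p of the neural list was at -4.66, -5.01, -6.01 and -5.97 at 3 months and at -4.13, -3.28 and -2.87 at 10 months, higher in 3 of 3 mice. The erythroid miR-451 differed by 0.06, in a list of 2 with a median of -1.51, and the imprinted miRs of other loci had a median of 0.02. Without 10-month replicate 2 the median was 0.16 for smooth muscle switching, 0.60 for the neural list, -0.11 for lipid metabolism, 0.29 for fibroblast and matrix, 0.20 for endothelial and flow, -0.32 for miR-99, miR-100 and miR-125, -0.41 for the Hox clusters, -0.33 for smooth muscle, -0.21 for the Sfmbt2 intron, -0.73 for the erythroid list and -0.30 for the imprinted miRs of other loci. It was -0.50 for let-7. For striated muscle it was 0.17 over 6 tested miRs, beside -0.12 over 4 with that mouse, so the 2 medians cover different sets. The endothelial and flow list likewise had 11 tested miRs without that mouse and 10 with it.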

How the data were processed

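miRs were measured in total RNA of whole aorta, extracted with the mirVana kit and used at an integrity number over 8, per the labels and the design text. The authors deposited 2 tables on a log2 scale: threshold cycles (517 miR assays and 13 control wells, 40 marking no amplification, judging from the values), and values that equal the cycle minus the mean of snoRNA202 and snoRNA429. No header or label states this step, and the software is not given in the sources used here.

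From the cycles, 35 or later was set to 35, the sign was turned and each array was centred on 285 miRs. The 353 miRs detected in at least 3 samples of a group were tested in 1 model of all 3 groups (limma 3.58.1, R 4.3.3; 8 residual degrees of freedom, prior of 2.11 with SD 0.606; two-sided, Benjamini-Hochberg adjusted). The median standard error of a log2 difference was 0.49: the number of mice limits the precision. The test was tried on simulated data. Per-array values were compared by exact permutation tests (scipy 1.17.1).

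The samples and the 23 lists were chosen with earlier results of these data known. The rule for named miRs takes the 12 higher and 12 lower of smallest p among miRs detected in all mice of a diet group. It also takes 4 per list, 27 fixed miRs (25 tested), other arms, and miRs detected in 1 group only. It named 127 miRs; lists of vessel, immune, ageing and imprinted miRs were described miR by miR, the others mostly by counts. Another 13 were chosen after their values were seen: let-7a, let-7c, let-7f, let-7g, miR-26b, miR-376a, miR-376a*, miR-382, miR-410, miR-411, miR-411*, miR-543 and miR-684. No label gives a run date or plate batch.

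Alternatives were other references (array median, control RNAs, quantile, none, each assay block, deposited values), other treatments of undetected wells, a limit of 32 cycles, other filters, a fit of 2 groups, the replicate block, a variance trend, a plain t-test and each mouse left out. A snoRNA202 and snoRNA429 reference, a common floor and array weights were added after seeing the data.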

Additional observations from a re-analysis of the deposited data

Results flagged for a closer look

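In 5 of 145 groups of 4 mice, 1 mouse lay far from the other three by Dixon's gap criterion, which chance alone meets in about 1 of 20 groups. At 3 months, replicate 2 was the lowest for miR-376b* at -1.32, beside -0.75 to -0.67. Replicate 3 was the lowest for miR-10b at 1.87, beside 2.59 to 2.63, and the highest for miR-378* at -1.76, beside -2.82 to -2.66. Replicate 4 was the highest for miR-15b* at 0.33, beside -0.82 to -0.72. Among the controls, U6 relative to the array mean was lowest in replicate 1 at 9.08, beside 10.91 to 11.21. The group of 3 mice at 10 months was too small for this criterion.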

How the results depend on the processing

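The count of 0 called miRs stayed 0 under the array median, the control RNAs, no normalization, no filter, missing values for undetected wells, the 32-cycle limit, a restriction to miRs present in every sample, 2 groups in the fit, and snoRNA202 with snoRNA429. It was 3 with quantile normalization (miR-376c, miR-494 and miR-21*), 5 with each assay block centred by itself, 1 with the deposited values (miR-21*), and 1 each with a variance trend and with the plain t-test (miR-376c). It was 6 with a common floor and 10 with array weights, both chosen after seeing the data. Leaving out each mouse gave 0 to 0, with smallest adjusted p values (limma) of 0.050 to 0.181. With the replicate block the count was 0 and the smallest adjusted p (limma) 0.104. The deviations of same-numbered mice correlated at 0.01, 0.23 and 0.13. The value of replicate 2, 0.23, was the highest of any pair across the diet groups, but not every mouse correlated best with its own number. Whether same-numbered mice shared a run or plate is not given by any label. The causes of these shifts were not tested.

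The median of all miRs was 0.34 with the array median, 0.89 with control RNAs, 0.64 with snoRNA202 and snoRNA429, 0.63 with the deposited values, -0.24 with no normalization and 0.30 with no filter. Without a filter the list medians minus that of all miRs were -0.79 (smooth muscle), 0.0061 (switching), -0.15 (endothelial), -0.23 (matrix), -0.0433 (epithelial), -0.27 (miR-30), -0.07 (miR-15 and miR-16) and -0.18 (miR-23, miR-27 and miR-24). Smooth muscle was -0.0414 with quantile normalization, switching 0.0826 with array weights, erythroid 0.0102 over miRs detected in all samples, and miR-23, miR-27 and miR-24 -0.0906 with the replicate block.

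With each mouse left out, list medians minus that of all miRs ran from 0.36 to 1.40 (macrophage activation), 0.41 to 0.82 (ageing), -0.58 to -0.27 (smooth muscle), -0.0742 to 0.16 (endothelial), -0.10 to 0.25 (matrix), -0.18 to 0.0291 (miR-30), -0.11 to 0.21 (miR-15 and miR-16) and -0.11 to 0.10 (miR-23, miR-27 and miR-24). The difference in the number detected ran from -3.75 to 19.8 and that in mean cycle from -0.90 to 0.98. Relative to the array mean, U87 ran from -1.21 to 0.21, Y1 from -4.03 to 0.53 and snoRNA429 from -0.58 to 0.00398. For Y1, 10-month replicate 2 averages wells at 27.16 and 40 cycles, the latter marking no amplification. U87, Y1 and the mean cycle changed sign without 10-month replicate 2, the number detected without 10-month replicate 3, and snoRNA429 without 3-month replicate 3. Leave-one-out differences ran from -0.50 to 0.17 for let-7b, -0.45 to 0.14 for let-7i, -0.63 to 0.0203 for miR-133a, -0.13 to 0.21 for miR-133b, -0.36 to 0.94 for miR-206, -0.29 to 0.40 for miR-29b, -0.30 to 1.15 for miR-342-3p, -0.39 to 0.71 for miR-451 and -0.0754 to 0.35 for miR-92a.

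Of 3880 alternative values of the 140 named miRs 238 changed sign, in 56 miRs, and 58 of these belong to the 73 miRs named one by one. With control RNAs the differences were 0.60 (let-7b), 0.11 (let-7d), 0.60 (let-7i), 0.0462 (let-7c), 0.73 (let-7g), 0.0570 (miR-127), 0.54 (miR-133a), 0.34 (miR-143), 0.31 (miR-145), 0.16 (miR-26a), 0.0457 (miR-434-5p) and 0.16 (miR-410). With the deposited values and with snoRNA202 and snoRNA429 they were 0.35 (let-7b), 0.35 (let-7i), 0.48 (let-7g), 0.29 (miR-133a), 0.0924 (miR-143) and 0.0623 (miR-145). With the array median they were 0.0412 (let-7b), 0.0459 (let-7i) and 0.18 (let-7g). With no normalization they were -0.24 (miR-133b), -0.16 (miR-206), -0.25 (miR-29b), -0.0223 (miR-342-3p), -0.24 (miR-451) and -0.12 (miR-92a). Array weights gave 0.13 (miR-133a), -0.0837 (miR-29b) and -0.36 (miR-451), and the replicate block -0.0471 (miR-29b).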
